A study of Mus musculus with 18 samples.

Results

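Bone marrow-derived macrophages (BMM) that lack Nur77 were compared after 8 h of lipopolysaccharide (LPS) and after 8 h of interleukin-4 (IL-4). The comparison used the 3 arrays labelled Nur77-KO with LPS and the 3 arrays labelled Nur77-KO with IL-4, out of 18 arrays in the series. All probes that carried 1 gene symbol and were detected (detection p under 0.05) on at least 1 of these 6 arrays were taken, which gave 16198 of 45281 probes and 10718 genes. LPS was given at 100 ng/ml and IL-4 at 50 ng/ml. The knockout mice and the wild-type (WT) mice were on a C57BL/6 background, and marrow was differentiated for 8 days in medium conditioned by L929 cells, a fibroblast line that secretes the macrophage growth factor M-CSF. Further groups of 3 arrays each held unstimulated Nur77-KO BMM at 0 h and WT BMM unstimulated, with LPS and with IL-4 at the same doses and times. Nothing in the labels says which mouse or culture each array came from, so p-values measure only the spread between arrays. Nur77 is encoded by Nr4a1, whose probe gave log2 values from 4.54 to 5.38 and passed detection on 0 of 18 arrays, so it could not check the knockout.

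LPS is a component of the outer membrane of Gram-negative bacteria that macrophages sense through TLR4 with CD14 and MD-2. The receptor signals through MyD88 to NF-kB and through TRIF to IRF3, which turns on type I interferon, and interferon then acts back on the cells through its own receptor. IL-4 is a cytokine of T helper 2 cells and other type 2 immune cells that acts through the IL-4 receptor and STAT6, and it turns on a separate set of genes known as alternative activation. Nur77 is an orphan nuclear receptor, a transcription factor of the NR4A family that is itself an early response gene and is known to bind the p65 subunit of NF-kB.

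The cells carried macrophage markers. All 10 macrophage marker genes with a probe were detected, 9 of them on every LPS array and 10 on every IL-4 array. Their summed normalised level, off the log2 scale, ran from 87400 to 94700 with LPS and from 75400 to 81400 with IL-4. Of these 10 genes, 4 were called higher with LPS, Cd14 and Fcgr1 among them, and 2 with IL-4, Csf1r and Cebpa. The sums hold genes that differ with the stimulus, so they do not compare macrophage content between the groups. The defining T and NK cell markers Cd3e, Cd3d, Cd4 and Cd8a, the B cell markers Ms4a1 and Pax5 and the mast cell markers Kit and Ms4a2 were detected on none of the 6 arrays. Nkg7, Cd79b and Cpa3 of the same lists were detected on at least 1 of the 6 arrays, Cd79b on every IL-4 array. Of 7 dendritic cell markers with a probe, 4 were detected on no array. Among the markers tested, 1 of 1 for B cells and 1 of 3 for dendritic cells were called higher with IL-4. Of 9 stromal markers tested, 2 were called higher with LPS. The replicate 1 arrays of both groups stood apart from the others. The root mean square deviation from the group mean was 0.40 and 0.45 on the replicate 1 arrays with LPS and IL-4, against 0.27 to 0.28 on the other 4. The Y-linked gene Eif2s3y stood at 4.53 and 4.59 on these arrays and at 8.91 to 9.40 on the other 4. The summed stromal markers were 1420 and 1390 there, against up to 15300 with LPS and 13500 with IL-4, and the summed neutrophil markers were highest there, at 13000 and 9830. Each group held 1 such array, and without both of them 4059 genes were called in place of 4593.

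A gene was called where limma's moderated test gave an adjusted p under 0.05 over all probes tested, at the gene's brightest probe. Of 10718 genes, 4593 were called (42.9%), of which 1738 were higher with LPS (16.2% of genes tested) and 2855 were higher with IL-4 (26.6%). The IL-4 side held more genes and the LPS side held the larger differences. A log2 difference of at least 3 was seen for 194 genes called on the LPS side and 74 on the IL-4 side, and a difference of at least 1 for 994 and 1404. The median log2 difference over all genes was -0.13, so slightly on the IL-4 side. The 6 arrays did not overlap between groups for 50.3% of all genes and for 4402 of the called genes. Slides 6 and 3 each held 1 array of both groups, and 4570 of the 4593 called genes had the same sign within both slides. The arrays on these slides are among the 6 that gave the calls, so such agreement was favored in advance and is no separate check. With slide as a fixed block 4443 genes were called, and with slide as a random block 4789.

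**Figure D1:**
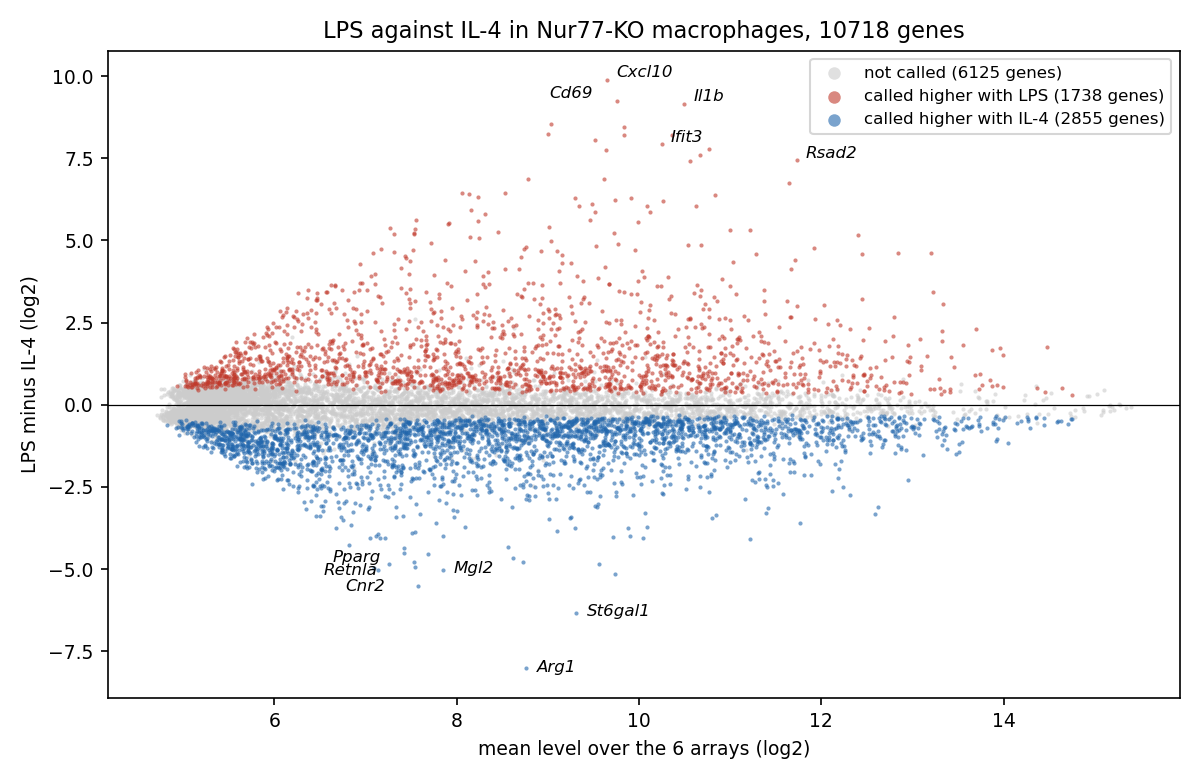
Mean log2 level over the 6 arrays (x axis) against the log2 difference of LPS minus IL-4 (y axis) for 10718 genes, 1 point a gene. Red points are the 1738 genes called higher with LPS, blue points the 2855 called higher with IL-4 and grey points the rest; the red points reach 9.88 (Cxcl10) and the blue points -8.02 (Arg1).

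The 15 genes with the largest difference on the LPS side were inflammatory and interferon-stimulated genes. They were Cxcl10, Cd69, Il1b, Ifi205, Clec4e, Cxcl9, Tnf, Ifit2, Cxcl2, Ifit3, Isg15, Il1a, Fpr2, Rsad2 and Cmpk2, with log2 differences from 7.42 to 9.88. Cxcl10, an interferon-inducible chemokine for T cells, stood at 14.33, 14.67 and 14.77 on the LPS arrays and at 4.94, 4.65 and 4.56 on the IL-4 arrays. The IL-4 values were not distinguished from background, so the difference is a lower bound, at least 532-fold higher with LPS (adjusted p = 4.74e-13). The bound sets the mean of the LPS arrays against the lowest signal detected on each IL-4 array.

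Il1b, which encodes the fever cytokine interleukin-1 beta, stood at 15.16, 15.02 and 15.02 with LPS and at 6.94, 5.43 and 5.39 with IL-4, a log2 difference of 9.14 ± 0.40 (SE; adjusted p = 5.31e-11). Tnf, which encodes tumor necrosis factor-alpha, stood at 13.41, 14.22 and 14.16 with LPS and at 5.56, 5.47 and 6.17 with IL-4, a difference of 8.20 ± 0.28 (adjusted p = 2.80e-12). The neutrophil chemokine Cxcl2 stood at 13.09, 13.84 and 13.68 with LPS and at 6.99, 4.59 and 4.89 with IL-4, a difference of 8.04 ± 0.58 (adjusted p = 1.55e-08). Detection on the IL-4 arrays was passed on 2 of 3 for Il1b and Tnf and on 1 of 3 for Cxcl2, so these differences rest partly on values at background. For all 3 genes every LPS array lay far above every IL-4 array, and for Il1b and Cxcl2 the highest IL-4 value was on the replicate 1 array. That array was the highest IL-4 array for 12 of these 15 genes, and the median difference of the 15 genes was 7.06 between the replicate 1 arrays against 8.43 and 8.50 within the other replicate pairs.

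Isg15, a ubiquitin-like interferon-stimulated protein, stood at 14.64, 14.73 and 14.62 with LPS and at 7.72, 6.69 and 6.23 with IL-4, a log2 difference of 7.79 ± 0.45 (adjusted p = 1.11e-09). Ifit3, an interferon-induced antiviral protein, stood at 14.03, 14.35 and 14.26 with LPS and at 7.84, 5.26 and 5.75 with IL-4, a difference of 7.93 ± 0.54 (adjusted p = 7.89e-09; detected on 2 of 3 IL-4 arrays). Rsad2, which encodes the antiviral enzyme viperin, stood at 15.45 on each of the 3 LPS arrays and at 9.64, 7.11 and 7.27 with IL-4, a difference of 7.45 ± 0.63 (adjusted p = 9.25e-08). Its LPS values were equal and lay close to 15.51, the highest value of any gene on the arrays used, so the difference may be understated.

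Of the 15 genes, 14 had a promoter window in the RefSeq table. Of these, 3 held an NF-kB motif, 5 held an ISRE (interferon-stimulated response element) and 7 held neither (Il1b, Clec4e, Cxcl9, Tnf, Il1a, Fpr2 and Cmpk2). Only the form of each motif given below was searched, within 250 bases, so other forms and more distant sites were missed. The promoters of 5 genes are shown, picked because they hold a motif named for factors that LPS or interferon signaling is known to engage. They are the 250 bases before the start site in RefSeq's GRCm38.p6 annotation, given 5′ to 3′ on the strand of the gene. Capitals mark GGGA and TTCC with 2 bases between them (an NF-kB motif) or GAAA and GAAA with 2 bases between them (the ISRE), on either strand. A match that overlaps one already marked was not marked. Cxcl10 (chr5:92348890-92349139, minus strand) holds both kinds, with the ISRE from 213 to 204 and the NF-kB motif from 159 to 150 bases before the start.
Cxcl10: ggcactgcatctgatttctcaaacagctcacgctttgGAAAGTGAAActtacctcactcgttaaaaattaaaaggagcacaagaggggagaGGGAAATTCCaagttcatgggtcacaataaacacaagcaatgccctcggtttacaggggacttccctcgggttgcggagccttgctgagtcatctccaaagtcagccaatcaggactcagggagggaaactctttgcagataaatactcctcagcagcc
Cxcl2 (chr5:90903649-90903898, plus strand) holds an NF-kB motif from 97 to 88 bases before the start, and a match on the other strand overlaps it.
Cxcl2: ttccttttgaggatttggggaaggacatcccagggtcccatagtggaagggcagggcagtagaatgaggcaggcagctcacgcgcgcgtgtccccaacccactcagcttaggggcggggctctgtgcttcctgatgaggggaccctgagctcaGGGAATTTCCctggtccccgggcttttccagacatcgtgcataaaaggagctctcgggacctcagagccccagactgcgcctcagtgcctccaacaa
Isg15 (chr4:156200819-156201068, minus strand) holds the ISRE from 78 to 69 and again from 66 to 57 bases before the start, and a further match overlaps both.
Isg15: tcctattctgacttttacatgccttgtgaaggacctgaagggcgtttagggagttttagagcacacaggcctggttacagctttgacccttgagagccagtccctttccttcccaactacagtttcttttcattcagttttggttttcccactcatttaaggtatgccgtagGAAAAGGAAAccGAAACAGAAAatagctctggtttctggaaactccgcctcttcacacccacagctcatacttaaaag
Ifit3 (chr19:34583279-34583528, plus strand) holds it from 156 to 147 and from 122 to 113 bases before the start.
Ifit3: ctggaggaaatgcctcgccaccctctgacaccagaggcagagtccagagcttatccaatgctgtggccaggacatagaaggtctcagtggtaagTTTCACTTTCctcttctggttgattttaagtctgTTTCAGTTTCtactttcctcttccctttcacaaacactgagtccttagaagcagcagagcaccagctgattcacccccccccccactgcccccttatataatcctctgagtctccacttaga
Rsad2 (chr12:26456453-26456702, minus strand) holds it from 120 to 111 bases before the start.
Rsad2: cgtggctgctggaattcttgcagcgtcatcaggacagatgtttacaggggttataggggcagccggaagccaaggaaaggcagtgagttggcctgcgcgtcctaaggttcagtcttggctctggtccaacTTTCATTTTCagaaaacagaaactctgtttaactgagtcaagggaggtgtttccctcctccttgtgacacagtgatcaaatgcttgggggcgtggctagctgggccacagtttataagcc
Over all genes tested, 8704 of 10718 had a window in the RefSeq table, 11089 windows in all. The ISRE stood in 2.95% of these windows, in 5.51% of the 1869 windows of genes called higher with LPS and in 2.03% of the 3000 windows of genes called higher with IL-4. The NF-kB motif stood in 1.15%, 1.66% and 1.10% of the same sets. These shares are a description with no test, and windows of 1 gene can overlap.

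Genes of classical inflammation formed the largest differences as groups. Of 20 NF-kB target cytokines and chemokines tested, 19 rose with LPS against IL-4 and 0 fell, with a median log2 difference of 4.35 (all genes -0.13). Il6 stood at 9.68, 10.63 and 10.35 with LPS and was not above background on any IL-4 array (4.63, 4.86 and 5.09), at least 25.7-fold higher (adjusted p = 2.60e-09). Il12a, a subunit of interleukin-12, stood at 8.66, 9.97 and 9.98 with LPS against 4.79, 4.91 and 4.72, at least 16-fold higher. The monocyte chemokine Ccl7 was the member not called (0.62 ± 0.54, adjusted p = 0.385). Its values were 13.38, 14.06 and 14.09 with LPS and 11.84, 13.77 and 14.07 with IL-4, and it stood lower, from 10.65 to 10.93, without stimulus.

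All 26 interferon-stimulated antiviral genes tested rose with LPS against IL-4, with a median log2 difference of 4.25. The range ran from 1.53 for Bst2, which tethers virus particles to the cell, to 8.20 for Ifit2. Mx1, a dynamin-like antiviral GTPase, stood at 11.52, 11.38 and 11.12 with LPS and below detection on all IL-4 arrays (4.62, 5.35 and 4.79), at least 56.1-fold higher. Usp18, the protease that removes ISG15 from proteins, differed by 6.39 ± 0.25 (adjusted p = 1.37e-11). Among 12 guanylate-binding proteins and immunity-related GTPases, which act on pathogen-containing vacuoles, 10 rose and Gbp8 (0.23) and Gbp9 (-0.27) were not called. Gbp5 stood at 12.88, 13.20 and 13.10 with LPS and at 8.43, 6.10 and 5.75 with IL-4 (6.30 ± 0.52, adjusted p = 7.66e-08). Of 7 interferon-induced chemokines and ligands, 6 rose, among them Cxcl9, at least 192-fold, and Il15 (3.62 ± 0.21). The IL-4 replicate 1 array again held the highest IL-4 value for Gbp5, and the median difference of the interferon-stimulated genes was 3.35 between the replicate 1 arrays against 4.82 and 4.6 within slides 6 and 3.

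The enzymes that make small effector molecules rose together. All 8 genes tested for nitric oxide, itaconate, prostaglandin and histamine production or the oxidative burst rose, with a median log2 difference of 4.12. Nos2, the inducible nitric oxide synthase, stood at 9.32, 9.86 and 9.73 with LPS and was below detection on the IL-4 arrays (4.73, 5.08 and 5.18), at least 17.2-fold higher (adjusted p = 3.06e-09). Acod1, which makes itaconate, stood at 14.75, 14.79 and 14.69 with LPS and at 11.15, 9.73 and 9.57 with IL-4 (4.59 ± 0.41, adjusted p = 1.88e-07). Acod1 was thus present in both states, and its mean without stimulus was 8.02. Ptges, the inducible prostaglandin E synthase, was at least 34.9-fold higher with LPS and Ptgs2 (COX-2) at least 7.53-fold higher.

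Genes that restrain the same pathways also stood higher with LPS. All 19 NF-kB feedback and mRNA-decay genes tested rose, with a median log2 difference of 3.07. The list also holds the NF-kB subunits Rel, Relb and Nfkb2, which are not inhibitors as such. Nfkbia, which encodes the inhibitor IkBa, stood at 12.94, 12.78 and 12.72 with LPS and at 9.37, 8.92 and 8.70 with IL-4 (3.81 ± 0.19, adjusted p = 1.97e-10). Tnfaip3, the ubiquitin-editing enzyme A20, differed by 3.90 ± 0.15, Socs3, an inhibitor of gp130 cytokine signaling, by 4.39 ± 0.15, and Il1rn, the interleukin-1 receptor antagonist, by 4.86 ± 0.24. Il10, an anti-inflammatory cytokine, stood at 8.35, 8.52 and 8.90 with LPS and at 6.15, 4.68 and 4.67 with IL-4 (3.42 ± 0.32, adjusted p = 2.95e-07; detected on 1 of 3 IL-4 arrays).

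Sensing and surface genes were mostly on the LPS side. Of 20 Toll-like receptor and inflammasome genes tested, 16 rose (80%) and 2 fell (10%), against 16.2% and 26.6% of all genes. Cd14, the co-receptor for LPS, differed by 4.13 ± 0.34 and Tlr2, the lipopeptide receptor, by 3.64 ± 0.23. Without stimulus their means were 10.95 and 10.99, below the LPS mean and above the IL-4 mean of each gene. Tlr4, the LPS receptor itself, was lower with LPS, at 8.82, 8.94 and 9.04 against 10.32, 10.10 and 10.18 with IL-4 (-1.26 ± 0.15, adjusted p = 3.50e-06). Of 13 costimulatory and TNF family genes 10 rose (76.9%). Cd40 stood at 13.93, 14.33 and 14.63 with LPS and at 10.04, 9.17 and 9.41 with IL-4 (4.76 ± 0.22, adjusted p = 8.79e-11), and its mean of 6.19 without stimulus was below both. The costimulatory ligand Cd86 was not called, with 10.75, 10.50 and 10.59 against 12.13, 10.52 and 10.26 (-0.36 ± 0.47, adjusted p = 0.569), and it too was lower without stimulus, from 8.03 to 8.21. Among 4 chemoattractant receptors tested, Fpr2, C5ar1 and Ccrl2 rose and Cxcr4, the receptor for CXCL12, fell, at 4.87, 5.59 and 5.07 with LPS against 9.32, 9.19 and 8.79 (-3.93 ± 0.21, adjusted p = 6.11e-10; detected on 1 of 3 LPS arrays).

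The 15 genes with the largest difference on the IL-4 side were Arg1, St6gal1, Cnr2, Prps1, Mgl2, Rnase2a, Cldn11, Retnla, Cables1, Tmem273, Gask1b, Pparg, Matk, 6430548M08Rik and Gcnt1, with log2 differences from -8.02 to -4.50. Arg1, the arginase that competes with nitric oxide synthase for arginine, stood at 11.46, 13.31 and 13.54 with IL-4 and below detection with LPS (4.69, 4.75 and 4.80), at least 139-fold higher with IL-4 (adjusted p = 3.57e-09). Retnla, which encodes the secreted protein RELM-alpha, stood at 9.75, 10.15 and 10.12 with IL-4 and below detection with LPS (5.10, 4.89 and 5.21), at least 20.5-fold higher (adjusted p = 1.28e-08). Mgl2, a C-type lectin, stood at 10.73, 10.13 and 10.22 with IL-4 and at 6.71, 4.57 and 4.73 with LPS (-5.02 ± 0.55, adjusted p = 1.64e-06; detected on 1 of 3 LPS arrays). The groups did not overlap for any of these 3 genes, and Arg1 was lowest on the replicate 1 array of the IL-4 group.

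Of the 15 genes on the IL-4 side 13 had a window, and Retnla and Gcnt1 held a STAT6 motif, as did Ifi205 and Ifit2 on the LPS side. The promoter of Retnla is shown because it holds the motif, where capitals mark TTC and GAA with 4 bases between them, a spacing bound by STAT6 (chr16:48842359-48842608, plus strand, from 145 to 136 bases before the start).
Retnla: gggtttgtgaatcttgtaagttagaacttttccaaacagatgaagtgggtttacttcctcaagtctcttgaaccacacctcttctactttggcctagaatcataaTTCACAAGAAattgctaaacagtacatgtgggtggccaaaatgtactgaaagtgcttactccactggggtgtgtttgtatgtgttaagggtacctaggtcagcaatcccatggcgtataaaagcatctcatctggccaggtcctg
This motif stood in 4.53% of windows of genes called higher with IL-4, in 5.14% of those called higher with LPS and in 4.84% of all windows. It reads the same on both strands as searched.

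**Figure D2:**
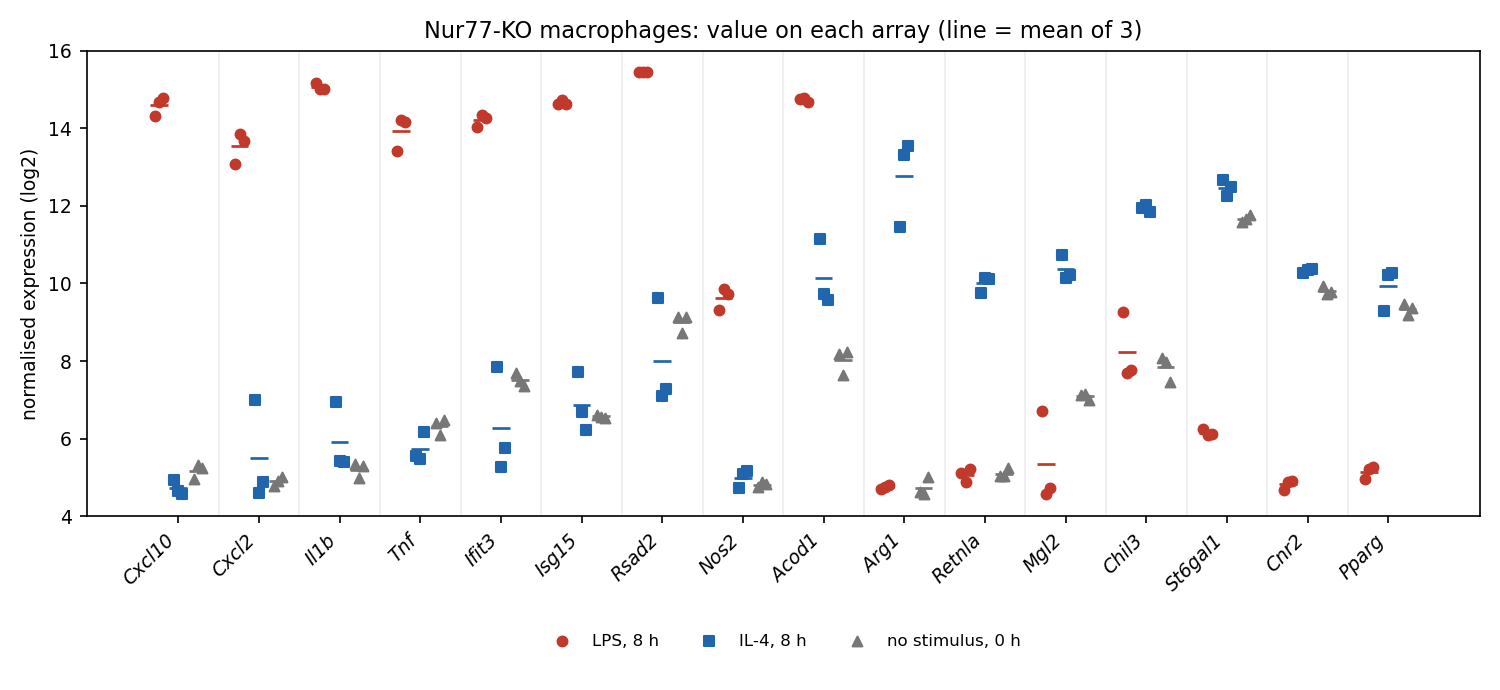
Normalised log2 expression (y axis) of 16 genes on each Nur77-KO array with LPS at 8 h (red circles), IL-4 at 8 h (blue squares) and no stimulus at 0 h (grey triangles); bars are means of 3 arrays. Arg1 and Retnla lie near 5 without stimulus and with LPS, whereas St6gal1, Cnr2 and Pparg lie near the IL-4 level without stimulus.

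The unstimulated arrays divided these genes by their side-by-side values. The unstimulated cells were taken at 0 h, so the stimulus and the 8 h in culture cannot be told apart in contrasts with them, and both contrasts share the same 3 unstimulated arrays. Against no stimulus 4648 genes were called with LPS (43.4%) and 641 with IL-4 (5.98%). For Arg1, the log2 difference from no stimulus was 8.04 with IL-4 (adjusted p = 1.63e-07) and 0.01 with LPS. For Retnla it was 4.91 with IL-4 and -0.03 with LPS. These genes stood at background in both other states.

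A further set was already high without stimulus and low with LPS. St6gal1, a sialyltransferase, stood at 12.66, 12.27 and 12.48 with IL-4 and at 6.24, 6.10 and 6.11 with LPS (-6.32 ± 0.16, adjusted p = 1.93e-13), with a mean of 11.67 without stimulus. Cnr2, the cannabinoid receptor of immune cells, stood at 10.26, 10.36 and 10.37 with IL-4 and below detection with LPS, at least 25.6-fold higher, with a mean of 9.81 without stimulus. Pparg, a lipid-sensing nuclear receptor, stood at 9.30, 10.21 and 10.26 with IL-4 and below detection with LPS (4.96, 5.21 and 5.26), at least 19.3-fold higher, with a mean of 9.34 without stimulus. For Pparg the difference from no stimulus reached -4.20 in the LPS arrays (adjusted p = 1.08e-08), and in the IL-4 arrays it was 0.58 (adjusted p = 0.366). Gcnt1, an enzyme that branches O-linked glycans, was also lowest with LPS but highest without stimulus, with means of 5.17 with LPS, 9.67 with IL-4 and 10.36 without stimulus.

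Of 31 alternative activation genes tested, 22 were higher with IL-4, 1 was higher with LPS and 8 were not called, with a median log2 difference of -2.87. The chitinase-like gene Chil3 stood at 11.96, 12.02 and 11.85 with IL-4 and at 9.27, 7.69 and 7.76 with LPS (-3.71 ± 0.43, adjusted p = 3.62e-06); its near copy Chil4 may share probe signal with it. The mannose receptor Mrc1 stood at 13.95, 14.45 and 14.36 against 10.37, 11.19 and 11.19 (-3.34 ± 0.26, adjusted p = 3.74e-08). The transcription factor Irf4 was below detection on all LPS arrays and at least 2.89-fold higher with IL-4. Egr2, a zinc finger factor of IL-4-treated macrophages, stood at 12.06, 12.01 and 12.13 with IL-4 and at 7.03, 8.50 and 8.53 with LPS (-4.05 ± 0.28, adjusted p = 1.21e-08).

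Feedback genes of STAT signaling did not all fall on 1 side. Cish differed by -3.46 ± 0.22 and Socs2 by -4.04 ± 0.73, both higher with IL-4. Socs1 stood at 7.82, 7.51 and 7.70 with LPS and at 7.66, 7.34 and 7.01 with IL-4 and was not called (0.34 ± 0.21, adjusted p = 0.208). It was above its unstimulated level in both contrasts, by 2.72 with LPS and 2.38 with IL-4. That level was below detection on all 3 unstimulated arrays (4.88, 5.21 and 4.79), so these differences rest partly on values at background. The arginine transporter Slc7a2 was the member higher with LPS, at 10.34, 10.68 and 10.61 against 8.55, 8.87 and 9.14 (1.69 ± 0.25, adjusted p = 4.19e-05), and it too was above its unstimulated values of 5.42 to 5.68 in both states.

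**Figure D3:**
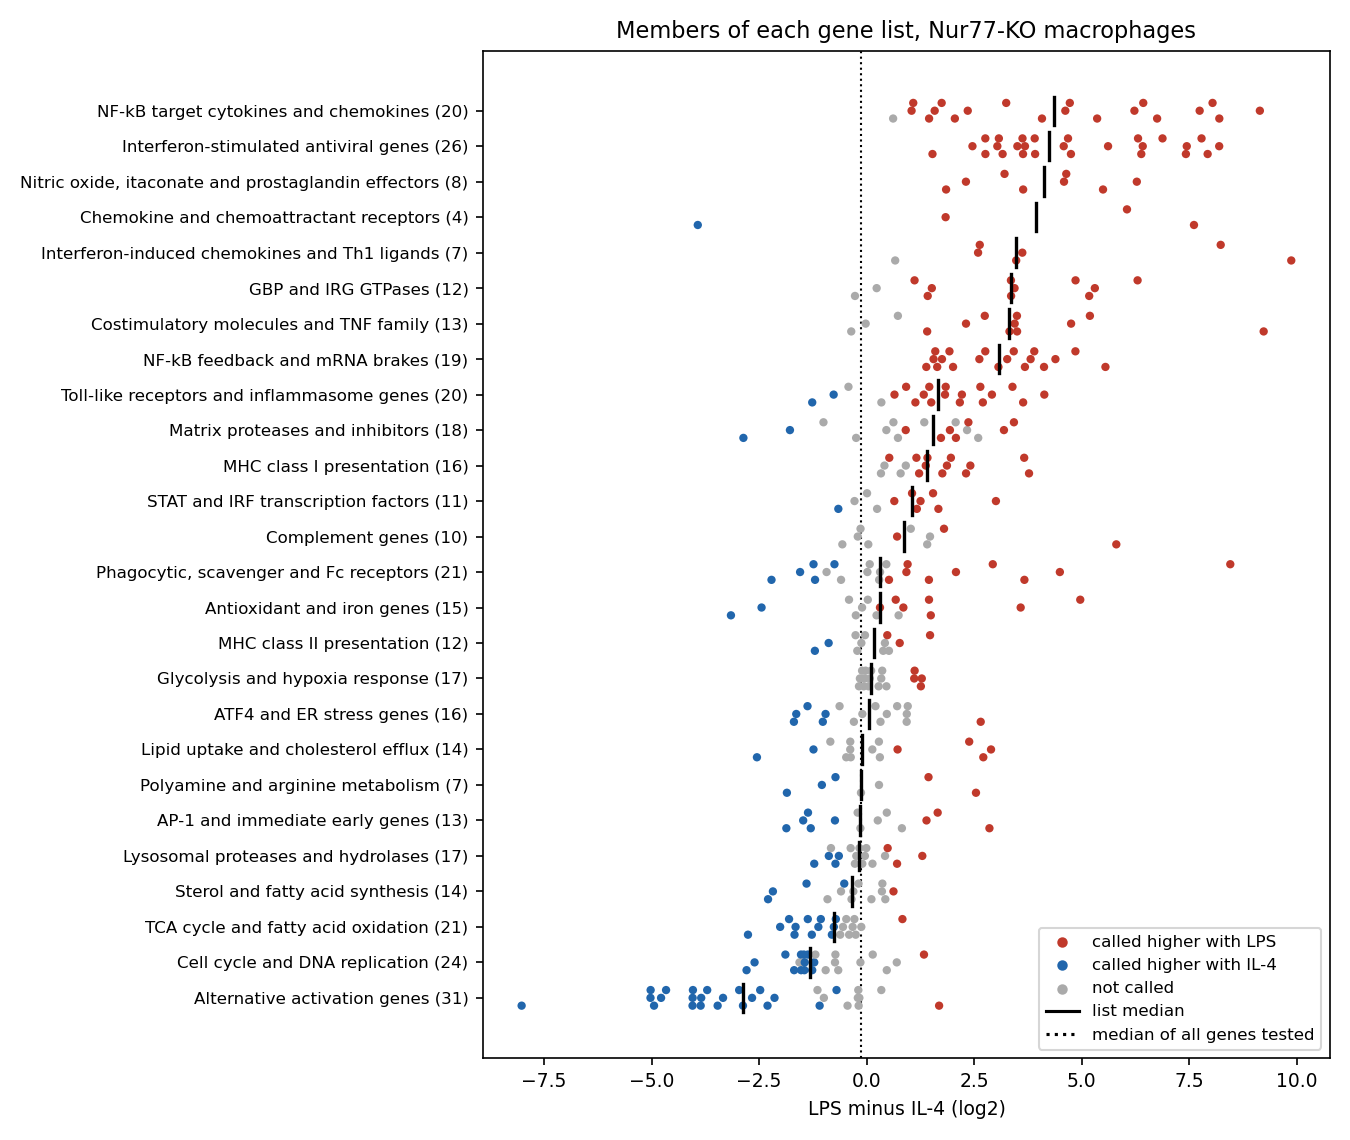
Log2 difference of LPS minus IL-4 (x axis) for the members of each gene list (rows, number tested in brackets), 1 point a gene. Red points were called higher with LPS, blue points higher with IL-4 and grey points were not called; black bars are list medians and the dotted line is the median of all genes, -0.13.

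Genes listed for the TCA cycle and fatty acid oxidation that were called lay mostly on the IL-4 side. Of 21 TCA cycle and fatty acid oxidation genes tested, 12 were higher with IL-4 (57.1%), 1 was higher with LPS (4.76%) and 8 were not called. The shares of all genes tested were 26.6% and 16.2%. The median log2 difference of the list was -0.76. The median was -1.27 between the replicate 1 arrays and -0.73 and -0.76 within the other pairs. Idh1 encodes the cytosolic isocitrate dehydrogenase, not the mitochondrial enzyme of the cycle. It stood at 8.09, 8.71 and 8.86 with LPS and at 11.06, 11.53 and 11.35 with IL-4 (-2.76 ± 0.21, adjusted p = 2.39e-08). Acadm, which oxidizes medium-chain fatty acids, differed by -2.01 ± 0.15, and Fh1, the fumarase, by -1.68 ± 0.12. Acadl, the long-chain enzyme, was the 1 member higher with LPS (0.83 ± 0.13, adjusted p = 7.80e-05). Its call was lost under median normalization and when its probes were averaged. Of 17 glycolysis and hypoxia genes 4 rose with LPS (23.5%) and 13 were not called, with a median of 0.11. The called genes were the hexokinases Hk1 and Hk3, Pfkp and Hif1a, with differences from 1.11 to 1.28, while Gapdh (-0.10), Ldha (-0.05) and Slc2a1 (0.46) were not called.

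Part of the cell cycle genes tested were lower with LPS. Of 24 tested, 12 were higher with IL-4 (50%), 1 (Ccne1, 1.33 ± 0.33) was higher with LPS (4.17%) and 11 were not called. The shares of all genes tested were 26.6% and 16.2%. The median log2 difference of the list was -1.32. The median was -0.67 between the replicate 1 arrays and -1.42 and -1.56 within the other pairs. Mcm2, a subunit of the replicative helicase, stood at 5.28, 5.61 and 5.05 with LPS and at 7.08, 7.16 and 7.37 with IL-4 (-1.89 ± 0.25, adjusted p = 1.29e-05; detected on 1 of 3 LPS arrays). The mitotic regulator Cdc20 stood at 4.96, 6.43 and 6.88 with LPS and at 6.95, 9.87 and 9.82 with IL-4 (-2.79 ± 0.74, adjusted p = 0.00652). The mitotic kinase Plk1 stood at 5.25, 7.74 and 7.61 against 8.04, 10.17 and 10.21 (-2.60 ± 0.96, adjusted p = 0.0390). Cdc20 and Plk1 were lowest on the replicate 1 array of each group and were detected on 2 of 3 LPS arrays. The call of Plk1 was lost without LPS replicate 1 (adjusted p = 0.177), IL-4 replicate 2 (0.122) or IL-4 replicate 3 (0.118), and that of Aurka without LPS replicate 1 (0.121), IL-4 replicate 2 (0.0966) or IL-4 replicate 3 (0.112). Slide as a fixed block also ended both calls (adjusted p = 0.0745 for Plk1 and 0.061 for Aurka). Both were kept with slide as a random block (adjusted p = 0.0393 and 0.0266).

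Iron and lipid genes moved in both directions. Tfrc, the transferrin receptor for iron uptake, stood at 9.61, 9.99 and 9.90 with LPS and at 13.03, 12.91 and 13.02 with IL-4 (-3.15 ± 0.14, adjusted p = 7.57e-11). Slc40a1, the iron exporter ferroportin, stood at 9.48, 8.76 and 8.91 with LPS and at 12.23, 11.06 and 11.18 with IL-4 (-2.44 ± 0.35, adjusted p = 3.50e-05), and its unstimulated mean of 13.93 was above both. Lcn2, which binds bacterial siderophores, stood at 12.54, 11.007 and 11.004 with LPS and at 7.31, 6.18 and 6.15 with IL-4 (4.97 ± 0.38, adjusted p = 2.91e-08). It is also on the neutrophil marker list, of which 2 of 10 tested were higher with LPS and 1 with IL-4, and it was highest on the replicate 1 arrays, as was the summed neutrophil signal. Slc7a11, a subunit of the cystine transporter, differed by 3.58 ± 0.18. In all, 7 of 15 antioxidant and iron genes were higher with LPS (46.7%) and 2 were higher with IL-4 (13.3%), against 16.2% and 26.6% of all genes.

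Among 14 lipid uptake and efflux genes, 4 were higher with LPS (28.6%) and 2 with IL-4 (14.3%), against 16.2% and 26.6% of all genes. Msr1, the scavenger receptor A, differed by 2.71 ± 0.20, Nr1h3, the oxysterol receptor LXR-alpha, by 2.89 ± 0.24 and Abcg1, a cholesterol exporter, by -2.55 ± 0.36. Ch25h, which makes 25-hydroxycholesterol, differed by 2.39 ± 0.88 (adjusted p = 0.0390). It stood at 10.68, 11.44 and 11.31 with LPS and at 6.47, 9.87 and 9.94 with IL-4, and without IL-4 replicate 1 the difference was 1.24 (adjusted p = 0.223); the call was also lost without any of the 3 LPS arrays (adjusted p from 0.0525 to 0.0985). Of 14 sterol and fatty acid synthesis genes 4 were higher with IL-4 and 1 with LPS, and of 17 lysosomal genes 4 and 3, which is close to the 26.6% and 16.2% of all genes except for fewer sterol genes on the LPS side.

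Receptors for particles and antibodies lay on both sides. Of 21 phagocytic, scavenger and Fc receptor genes, 9 were higher with LPS (42.9%) and 5 with IL-4 (23.8%). The shares of all genes tested were 16.2% and 26.6%, so the IL-4 share was near that of all genes. Clec4e (Mincle, a receptor for mycobacterial glycolipid) stood at 14.30, 14.07 and 13.84 with LPS and at 5.47, 5.78 and 5.59 with IL-4 (8.46 ± 0.28, adjusted p = 2.26e-12; detected on 2 of 3 IL-4 arrays). The scavenger receptor Marco stood at 11.79, 10.60 and 10.46 against 8.71, 5.28 and 5.38 (4.49 ± 0.81, adjusted p = 2.88e-04; detected on 1 of 3 IL-4 arrays). The activating Fc receptor Fcgr1 differed by 3.67 ± 0.33. Of 18 matrix protease and inhibitor genes 7 were higher with LPS (38.9%) and 2 with IL-4 (11.1%). The LPS side was led by the collagenase Mmp13 (3.43 ± 0.54, with 10.24 on IL-4 replicate 1 and 12.03 and 12.26 on the other IL-4 arrays). The 2 on the IL-4 side were the metalloprotease Adam8 (-2.86 ± 0.29) and the inhibitor Timp2 (-1.78). Of 10 complement genes 3 were higher with LPS (30%), of which the alternative pathway factor Cfb differed most (5.81 ± 0.53).

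The antigen presentation genes differed by class. Of 16 MHC class I genes 12 rose with LPS and 0 fell, with a median log2 difference of 1.4. Nlrc5, the activator of class I genes, stood at 11.36, 11.25 and 11.21 with LPS and at 8.13, 7.17 and 7.18 with IL-4 (3.78 ± 0.24, adjusted p = 3.29e-09), and the peptide transporter Tap1 differed by 3.66 ± 0.31. Of 12 MHC class II genes 3 rose (25%), 2 fell (16.7%) and 7 were not called, with a median of 0.17. The shares of all genes tested were 16.2% and 26.6%. H2-Ab1, a class II chain, stood at 11.47, 11.85 and 11.84 with LPS and at 11.32, 10.74 and 10.80 with IL-4 (0.77 ± 0.21, adjusted p = 0.00705), and H2-DMa, which helps load peptides, at 8.74, 9.50 and 9.69 against 10.22, 10.16 and 10.19 (-0.88 ± 0.24, adjusted p = 0.00707). The call of H2-Ab1 was lost with the replicate block in the 6 arrays alone (adjusted p = 0.0569), and that of H2-DMa without the replicate 1 arrays of both groups (-0.58, adjusted p = 0.0765).

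Ciita, the master activator of class II genes, stood at 6.53, 8.63 and 8.63 with LPS and at 5.75, 6.85 and 6.77 with IL-4 in Nur77-KO BMM, with overlapping groups (1.48 ± 0.53, adjusted p = 0.0343). In WT BMM it stood at 6.19, 6.43 and 5.0 with LPS (detected on 2 of 3 arrays) and at 6.58, 7.95 and 7.94 with IL-4, with no overlap (-1.62 ± 0.53, adjusted p = 0.0207). It was the 1 gene called in opposite directions in both genotypes, read at the brighter of its 2 probes. The other probe was not called in Nur77-KO. The difference between genotypes was 3.09 ± 0.75 (unadjusted p = 0.000778) and did not pass over all probes (adjusted p = 0.741). It passed without LPS replicate 1 of Nur77-KO (3.79, adjusted p = 0.0348), but not without the replicate 1 arrays of both groups together. The Nur77-KO call itself was lost without IL-4 replicate 1 (adjusted p = 0.141), LPS replicate 2 (0.143) or LPS replicate 3 (0.142).

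Across all genes the contrast was tested for a difference between genotypes. In WT BMM 4700 genes were called (43.9%), and 3859 genes were called the same way in both genotypes, 84.0% of those called in Nur77-KO and 82.1% of those called in WT. The differences in the genotypes had a Pearson r of 0.947 across genes, which are not independent replicates. No gene passed for the difference of the LPS minus IL-4 contrast between genotypes in limma's fit (0%), and 505 had an unadjusted p under 0.05, against 536 by chance. The median SE of this difference was 0.33 on the log2 scale, against 0.23 for the contrast in Nur77-KO alone, so small differences were not detectable with 3 arrays a group.

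This count rested on 1 array. Without the LPS replicate 1 array of Nur77-KO, 7 genes passed for the difference between genotypes, Ciita among them, and without the replicate 1 arrays of both groups 8 passed, with Egr2, Ppp1r3b and Gpr83 in both sets. These genes are named after their values were seen. For Egr2 the Nur77-KO minus WT difference was 1.56 without LPS replicate 1 (adjusted p = 0.0305) and 1.07 with all arrays (adjusted p = 0.980). The immediate early gene Fos stood at 9.33, 7.23 and 7.70 with LPS in Nur77-KO and at 9.67, 9.70 and 9.71 in WT. Its Nur77-KO minus WT difference was -2.15 without LPS replicate 1 (adjusted p = 0.0348) and -1.53 with all arrays (adjusted p = 0.980). For Lcn2 the value was -2.10 without the replicate 1 arrays of both groups (adjusted p = 0.0348) and -1.97 with all arrays (adjusted p = 0.776).

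**Figure D4:**
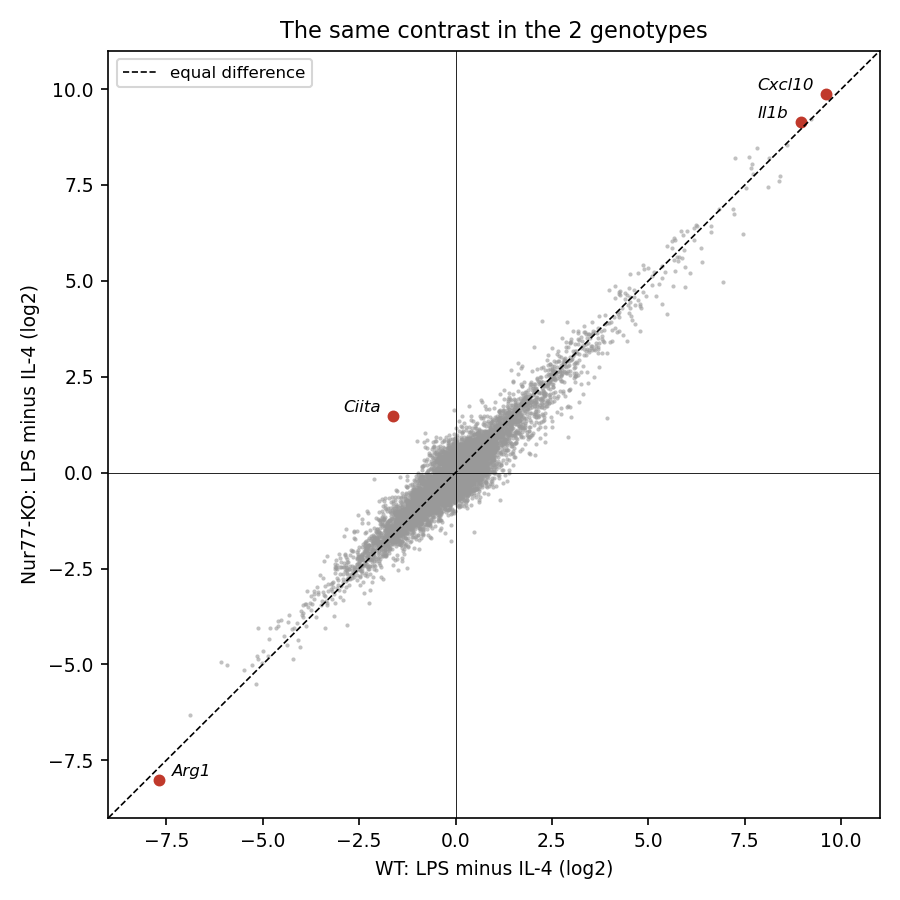
Log2 difference of LPS minus IL-4 in WT BMM (x axis) against the same difference in Nur77-KO BMM (y axis) for the genes tested, with the line of equal difference dashed. Most points lie along the line (r = 0.947), and Ciita lies at -1.62 in WT and 1.48 in Nur77-KO.

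**Figure D5:**
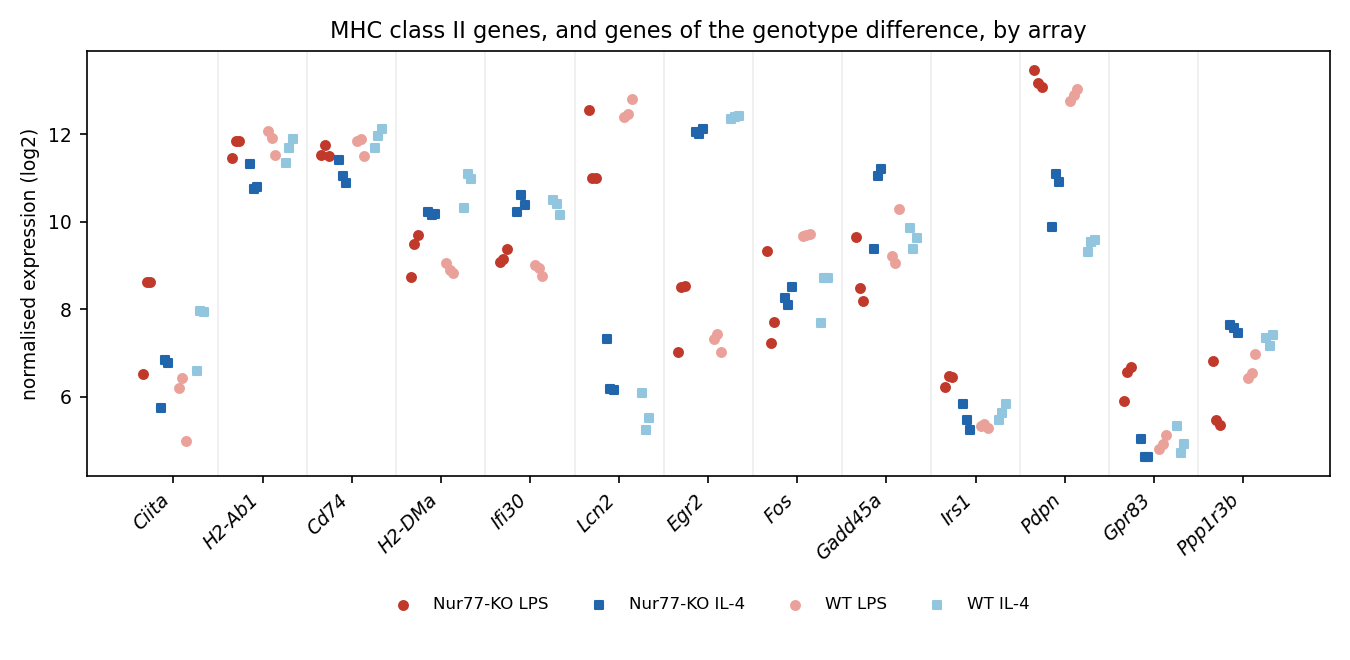
Normalised log2 expression (y axis) of MHC class II genes and of genes that passed for the genotype difference when replicate 1 arrays were left out, on each of the 3 arrays of Nur77-KO (dark) and WT (light) BMM with LPS (circles) and IL-4 (squares). The Fos values with LPS run from 7.23 to 9.33 in Nur77-KO and from 9.67 to 9.71 in WT.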

How the data were processed

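RNA of 18 BMM samples was hybridised to Illumina MouseWG-6 v2 bead arrays. The deposited values are, per the labels and the study's methods, background-corrected, quantile-normalised log2 values made by the authors with limma's neqc (R 2.14.0, limma 3.10.2) from GenomeStudio 2011.1 output. The authors also deposited non-normalised probe intensity with a detection p-value per probe and array. The detection p-value was used as the filter and the intensity for alternatives. Marker sums were made from the deposited normalised values, taken back from the log2 scale. Values from neqc run here differed from the deposited values by at most 0.0588. The number of arrays limits the precision.

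Here, 16198 probes with 1 gene symbol in GEO's platform annotation (34885 of 45281 probes had 1, 18 had several, 10378 were not listed) that passed detection (p-value under 0.05) on 1 or more of the 6 arrays were fitted with limma 3.58.1 (R 4.3.3; lmFit and eBayes, means of 6 groups, 18 arrays, 12 residual degrees of freedom), with two-sided tests and Benjamini-Hochberg adjustment over all probes. A gene was read at its probe with the highest mean over the 6 arrays. Of 3767 genes with several probes, 34 had probes called in opposite directions. A probe undetected on every array of a group gave only a lower bound for the fold, against the lowest detected signal on each array, or the probe's own signal where that was higher. The fit was checked on simulated data. Genes named were the 15 largest differences each way among called genes whose arrays did not overlap, and, from every list, at most 4 genes that were called; the other genes named, such as Il12a, Mx1, Bst2, Ccl7, Cd86, Gapdh and the family members in the closing section, were chosen after their values were seen. The members and lists were chosen with earlier results of these data known. Deviations of arrays with the same replicate number from their group means had r of 0.402, 0.281 and 0.340. Arrays with other numbers had r of 0.16 and 0.18 between replicates 2 and 3, and from -0.266 to -0.343 where 1 of them was replicate 1. The main fit held no term for replicate or slide, so its SEs and p-values are unpaired. For the replicate block, an alternative, the numbers were taken to pair the arrays. This pairing is read from the data, since the labels say only the number, and pairs 2 and 3 also shared a slide. Motifs were searched in RefSeq promoter windows of GRCm38.p6. The alternatives covered background correction, normalization, filters, blocks, thresholds and left-out arrays.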

Additional observations from a re-analysis of the deposited data

How the results depend on the processing

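Of 121 genes given above, 111 were called; 94 of these kept their call under each of the 23 alternatives that gave them a value, and 17 lost it under at least 1, of which 10 only under median normalization or the minimum difference of 1. None was called in the opposite direction. The count of 4593 genes lay between 4031 and 4831 in the alternatives other than those that follow and the fit of only the groups compared (3641). With median normalization 1879 genes were called (653 higher with LPS, 1226 with IL-4; 1691 in WT), and the median difference of all genes was -0.25 in place of -0.13; the cause was not tested. A minimum absolute log2 difference of 1 left 2398 (994 and 1404; 2610 in WT). Cyclic loess raised the share of called genes higher with LPS from 37.8% to 46.9%. Leaving out each of the 6 arrays in turn gave 4093 to 4369 genes (1525 to 1647 higher with LPS, 2523 to 2783 with IL-4). For the difference between genotypes, 488 of 10718 genes passed the study's thresholds (unadjusted p under 0.05 and a fold of 1.4). Unadjusted p alone was under 0.05 for 505 genes, against 536 by chance. By adjusted p, 0 to 7 passed with 1 array left out (7 without LPS replicate 1), and 8 passed without the replicate 1 arrays of both groups. With the replicate block 4503 genes were called, of which 4378 were called without it, and the genes lost numbered 215; in the 6 arrays alone the replicate block called 4031. Among the genes given, the block in the fit of all arrays ended no call, and the block in the 6 arrays alone ended that of H2-Ab1 (adjusted p = 0.0569). The lowest detected value was 5.40 to 5.70 on these 6 arrays, and below it differences were not detectable.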

Other observations

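Gene families read from their symbols, chosen after the values were seen, are given as counts with no test. Of 54 cytosolic ribosomal protein genes 33 were higher with IL-4 and 0 with LPS (median log2 difference -0.44), of 71 mitochondrial ribosomal protein genes 34 and 2 (-0.39), and of 42 genes of respiratory complex I 23 and 1 (-0.47), against 26.6% and 16.2% of all genes tested and a median of -0.13. The within-pair medians were -0.43, -0.49 and -0.43 for the cytosolic ribosomal proteins. The named examples are Mrpl42 (-1.81 ± 0.16), Mrps26 (-1.47 ± 0.14) and Ndufs7 (-1.01 ± 0.12). Of 28 aminoacyl-tRNA synthetases 13 were higher with IL-4 and 2 with LPS. The exception with the largest difference was Wars, the tryptophanyl-tRNA synthetase, which was higher with LPS (1.59 ± 0.22).

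Of 43 proteasome genes 12 were higher with LPS and 5 with IL-4, where the shares of all genes tested were 16.2% and 26.6%. The immunoproteasome subunits Psmb8 and Psmb9 differed by 1.96 ± 0.17 and 1.87 ± 0.27. Of 12 poly-ADP-ribose polymerase genes 7 were higher with LPS, led by Parp12 (3.69 ± 0.28), and all 3 Schlafen genes tested were, led by Slfn1 (5.60 ± 0.51). Among 195 solute carriers 42 were higher with LPS and 54 with IL-4, to be read beside the same shares of all genes. The nucleoside transporter genes Slc28a2 and Slc28a2b, near copies whose probes may not tell them apart, differed by 4.62 and 5.198, and Slc46a3 by -4.33 ± 0.32. The RNA-binding protein gene Zfp36l1 stood lower with LPS (-3.59 ± 0.17), whereas Zfp36 of the same family stood higher (1.64).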
